A study of Mus musculus with 10 samples.

Results

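The NRF2 axis examined here is the transcription factor gene Nfe2l2 with its inhibitor gene Keap1 and 8 genes for cystine import, glutathione synthesis and thiol reduction. The members were the entries named Nfe2l2, Keap1, Slc7a11, Gclc, Gclm, Gss, Gsr, Txnrd1, Srxn1 and Glrx. Of these 10 genes, 9 were among the 10141 genes of the deposited table, and Keap1 was not analysed here. All 9 passed the filter on low values that left 8079 genes for testing. Slc7a11 did so through the myeloid group alone and Srxn1 through the leukaemia group alone, so their group means had to differ.

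Both groups came from the bone marrow of CD45.1 mice that had received MLL-AF9/GFP cells through the tail vein, and marrow was taken once GFP+ cells made up 2% of the peripheral blood. MLL-AF9 is a fusion oncogene that drives acute myeloid leukaemia, and GFP marks the cells that carry it. The leukaemia group was GFP+ cells (5 libraries), and the myeloid group was GFP-CD11b+ cells of the same kind of diseased marrow (5 libraries). The labels give all 10 libraries the genotype MLL-AF9/GFP and the cell type of leukaemia cells, so the titles alone separate the groups. The protocol describes flow sorting of both populations, and the series design describes magnetic selection of CD45.2-CD11b+ cells for the myeloid group. The age of the mice and the promoter or clone behind the leukaemia are not given in the labels. Nothing in them ties a library to a mouse of its own, so p-values measure only the spread between these libraries. No healthy marrow or normal immature cells were in the comparison, so leukaemia and stage of maturation cannot be told apart.

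NRF2, the protein of Nfe2l2, switches on genes that defend cells against oxidants and electrophiles. In unstressed cells KEAP1 holds NRF2 and passes it to a CUL3 ubiquitin ligase for degradation, so much of its control is at the protein level, which RNA does not measure. Its target genes include the cystine importer xCT (Slc7a11), the enzymes that build glutathione from the imported cysteine, and enzymes that keep glutathione and thioredoxin reduced with NADPH. Phagocytes make oxidants with an NADPH oxidase and are rich in such enzymes, and leukaemia cells also depend on thiol defence.

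NRF2 binds antioxidant response elements together with small MAF proteins, and the amino acid stress factor ATF4 also acts on Slc7a11. Promoter windows from RefSeq (build GRCm38.p6, 250 bases before to 50 after the start) were at hand for 8 of the 10 genes, but not for Gclc and Gsr. Each was searched on both strands for TGACNNNGC and TGAGNNNGC (forms of the antioxidant response element), TGANTCA (AP-1, which overlaps TGAGNNNGC in TGAGTCAGC) and TGATGCAA (ATF4). The 4 stretches that follow are shown because they belong to the regulator gene itself, to the members with the largest differences (Slc7a11 and Glrx) and to Srxn1, which went the other way. Capitals mark the matches. They are written 5′ to 3′ on the strand of the gene.
Slc7a11: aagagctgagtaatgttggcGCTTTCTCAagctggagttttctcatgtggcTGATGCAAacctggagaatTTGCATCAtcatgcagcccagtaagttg
Srxn1: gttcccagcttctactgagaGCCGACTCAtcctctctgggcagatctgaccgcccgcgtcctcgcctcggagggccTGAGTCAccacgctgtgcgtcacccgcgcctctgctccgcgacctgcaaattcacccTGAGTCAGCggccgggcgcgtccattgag
Glrx: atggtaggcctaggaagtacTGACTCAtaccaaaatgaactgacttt
Nfe2l2: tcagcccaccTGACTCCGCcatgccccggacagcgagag

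The Slc7a11 stretch lies at chr3:50443633-50443730 on the minus strand, the Srxn1 stretch at chr2:152105346-152105507 on the plus strand, the Glrx stretch at chr13:75839767-75839813 on the plus strand and the Nfe2l2 stretch at chr2:75704875-75704913 on the minus strand. All 4 lie upstream of the start site. Slc7a11 was the only one of the 8 genes with ATF4 matches, a pair facing each other at -66 and -47 from the start, and 0.895% of all 32851 promoter windows held such a match. The 8 genes had 10 windows. Either form of the antioxidant response element was found in 5 of these 10 windows, 1 each for Nfe2l2, Slc7a11, Gclm, Txnrd1 and Srxn1, and in 27.8% of all windows. AP-1 matches were in 2 of the 10 windows, those of Srxn1 and Glrx, and in 7.81% of all windows. Srxn1 had both kinds in 1 place at -45. Matches thus stood upstream of genes that were higher and of genes that were lower in leukaemia. The lack of a match in so short a window says nothing about sites further away.

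The deposited values are variance-stabilised counts on a log2 scale. They were also turned back into reads divided by each library's size factor, called normalised reads here. The 10141 genes held from 24099551 to 32247803 reads per library, and after division by the size factors their sum was 1.56 times as large in the myeloid group as in leukaemia. The highest unadjusted p of any of the 10141 genes, fitted without the filter, was 0.243. No gene of the table thus had a high p. The shares of tested genes given below are shares of this table, which may not represent all expressed genes. Myeloid replicates 2 and 4 stood apart from the other 3 myeloid libraries, with 5723 and 5813 normalised reads summed over 8 dendritic cell markers, against 39226 to 60819. Sums of mature neutrophil markers and of leukaemia and progenitor markers separated the groups in the direction of their labels. Monocyte, macrophage and dendritic cell marker sums were lower in leukaemia, while B cell, T or NK cell and erythroid marker sums overlapped between the groups. The sum of 12 mature neutrophil markers was 73094 to 76699 normalised reads in leukaemia and 2872878 to 4540719 in myeloid cells, and that of 9 leukaemia and progenitor markers was 228199 to 277944 and 19818 to 44547.

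Nfe2l2, Slc7a11 and Glrx were lower in the leukaemia cells, while Gclc, Srxn1, Txnrd1 and Gss were higher. Gsr was lower by a smaller margin, and the direction of Gclm depended on the scaling. In the limma fit of the deposited values all 9 members passed the adjusted threshold of 0.05, 4 higher and 5 lower in leukaemia, in a table where 99.8% of the genes tested passed (49.1% higher and 50.7% lower). Leukaemia and myeloid libraries were fully apart for 8 members, 4 in each direction, and overlapped for Gclm. Over all genes tested they were apart for 86.8%, 42.4% higher and 44.3% lower. A count of calls near the background says nothing particular about the members. Their sizes were spread out: Slc7a11, Glrx and Nfe2l2 passed with a log2 difference of at least 1, all lower in leukaemia, where 18.1% of tested genes did so in that direction. No member did so in the higher direction on this scale, where 9.52% of tested genes did. The median log2 difference of the 9 members was -0.32, and that of all tested genes was -0.16. The deposited scale compresses low counts. With voom on the reads and the authors' size factors, Gclc (1.33) and Srxn1 (1.41) also reached 1, in the higher direction. There 3851 of all tested genes reached it in either direction.

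**Figure D1:**
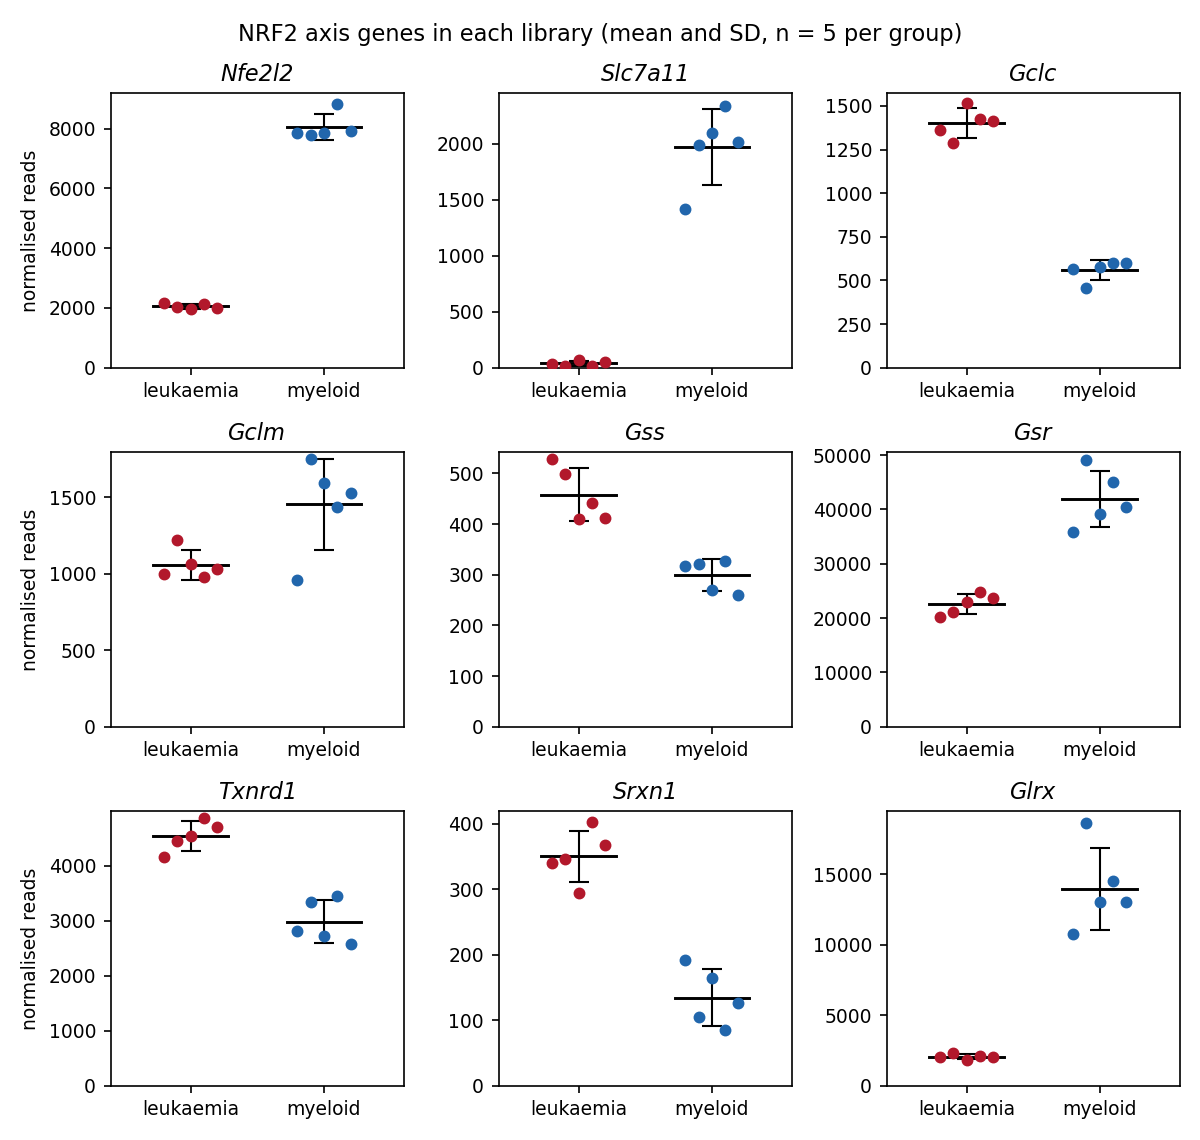
Normalised reads (vertical axes, linear from 0) of the 9 members in each of the 5 leukaemia libraries (red) and 5 myeloid libraries (blue), with black lines at the mean and bars of 1 SD. The groups are apart in 8 of the 9 panels, and the Gclm panel is the one where a myeloid library, at 957, lies below the leukaemia points.

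The regulator gene Nfe2l2 was 3.92-fold lower in leukaemia. Its normalised reads were 2162, 2023, 1976, 2128 and 1985 in leukaemia replicates 1 to 5. They were 7871, 7789, 7848, 8837 and 7915 in myeloid replicates 1 to 5. Among the leukaemia libraries the highest was 1.09 times the lowest, and in the myeloid group replicate 4 was above 4 libraries that lay close together. The means were 2055 ± 85.1 and 8052 ± 441 (SD, n = 5 each), with a limma log2 difference of -1.73 (SE 0.0544, adjusted p = 1.38e-11). Of the genes tested, 8.66% had a larger absolute log2 difference.

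Slc7a11 encodes xCT, the subunit of system xc- that brings cystine into the cell in exchange for glutamate. It was detected in all leukaemia libraries but at few reads, with 34.8, 18.5, 64.7, 16.1 and 53.8 normalised reads in replicates 1 to 5, which rest on 45, 25, 90, 19 and 58 reads. In the myeloid libraries it had 1420, 1990, 2099, 2334 and 2018. The lowest myeloid library, replicate 1, was far above the highest leukaemia library, replicate 3. The leukaemia mean of 37.6 ± 21.4 was 52.5-fold below the myeloid mean of 1972 ± 337 (SD, n = 5 each). On the deposited scale, which compresses low counts, the log2 difference was -2.61 (SE 0.1, limma adjusted p = 7.84e-11), and 2.74% of the genes tested had a larger one. With voom on the reads and the authors' size factors the log2 fold was -5.88 (SE 0.394).

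The level of Slc7a11 in leukaemia was 1.91% of that in myeloid cells, and the summed mature neutrophil markers in leukaemia were 2.16% of their myeloid sum. That sum hides a wide spread among the 12 markers. They ran from 597-fold lower in leukaemia for Retnlg to 11.3-fold lower for Csf3r, beside 52.5-fold for Slc7a11. Both markers were named after their values were seen. None of the 12 neutrophil markers was at 0 in leukaemia. Among the leukaemia libraries Slc7a11 varied 4.01-fold between lowest and highest, while the marker sum stayed between 73094 and 76699. Whether RNA of myeloid cells contributed to the leukaemia reads of Slc7a11 was not tested. In a bulk sample, fewer expressing cells and less RNA per cell cannot be told apart.

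The glutathione synthesis genes did not move as a block. The ligase that joins glutamate and cysteine, the rate-limiting step, is made of a catalytic subunit (Gclc) and a modifier subunit (Gclm) that raises its activity. Gclc was 2.51-fold higher in leukaemia, with 1363, 1285, 1518, 1427 and 1413 normalised reads in leukaemia replicates 1 to 5 and 564, 459, 574, 598 and 599 in myeloid replicates 1 to 5. No library of either group came near the other group. The means were 1401 ± 85.6 and 559 ± 58 (SD, n = 5 each, log2 difference 0.87, SE 0.0565, limma adjusted p = 8.22e-09).

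Gclm had 1000, 1218, 1061, 976 and 1028 normalised reads in leukaemia replicates 1 to 5, and 957, 1746, 1595, 1437 and 1527 in myeloid replicates 1 to 5. Myeloid replicate 1 was below all leukaemia libraries and the other 4 were above them, so the groups overlapped through 1 library. The means were 1057 ± 95.8 and 1452 ± 299 (SD, n = 5 each), 1.37-fold lower in leukaemia (log2 difference -0.32, SE 0.101, limma adjusted p = 0.00881). With reads scaled to the table total, the log2 fold turned to 0.21 and did not pass (limma-voom adjusted p = 0.137).

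The ratio of Gclc to Gclm reads within a library does not depend on how libraries are scaled to each other. It was 1.36, 1.06, 1.43, 1.46 and 1.37 in leukaemia replicates 1 to 5 and 0.59, 0.263, 0.36, 0.416 and 0.392 in myeloid replicates 1 to 5. Catalytic subunit reads thus outnumbered modifier reads in every leukaemia library and in no myeloid library. The mean ratio was 1.34 ± 0.163 against 0.404 ± 0.119 (SD, n = 5 each), a 3.4-fold difference of the mean log ratios (exact two-sided permutation test, p = 0.00794, the smallest that 5 libraries against 5 can give). It was the only ratio of the 3 planned that could be computed, since Slc3a2, the partner chain of xCT, and Keap1 were not analysed here. The labels do not settle whether same-numbered libraries are pairs. Taken as pairs, they gave p = 0.0625 in an exact sign-flip test, the smallest that 5 pairs can give.

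**Figure D2:**
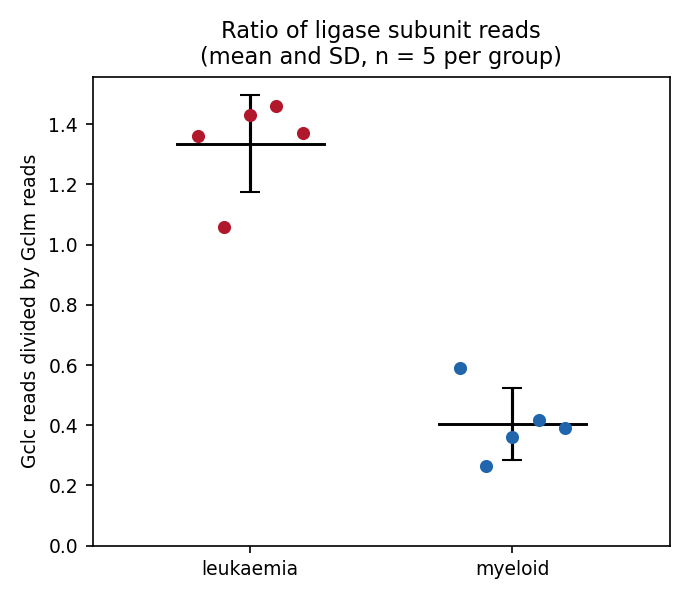
Reads of Gclc divided by reads of Gclm (vertical axis, linear from 0) in each leukaemia library (red) and myeloid library (blue), with the mean and SD in black. Leukaemia libraries lie between 1.06 and 1.46 and myeloid libraries between 0.263 and 0.59.

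Gss encodes glutathione synthetase, which adds glycine in the second step. It ranged from 411 to 528 normalised reads in leukaemia and from 260 to 327 in myeloid cells, with means of 458 ± 52.9 and 299 ± 31.8 (SD, n = 5 each, 1.53-fold higher in leukaemia, log2 difference 0.3, SE 0.0577, limma adjusted p = 0.000246). Its exons overlap those of Acss2 on the opposite strand in GENCODE M21, and whether counting used strand was not given in the sources used here. Acss2 went the other way, at 162 to 262 normalised reads in leukaemia and 547 to 1137 in myeloid cells, so reads of the pair may be mixed.

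Gsr encodes glutathione reductase, which returns oxidised glutathione to its reduced form with NADPH. It had the highest level per kilobase of exon of the 9 members in both groups. Its normalised reads ran from 20255 to 24720 in leukaemia and from 35843 to 49022 in myeloid cells. The means were 22550 ± 1837 and 41898 ± 5179 (SD, n = 5 each), 1.86-fold lower in leukaemia (log2 difference -0.87, SE 0.0951, limma adjusted p = 1.4e-06). The size of this difference depended on the scaling, and quantile normalisation gave a log2 difference of -0.24 and voom on the table total -0.25.

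Txnrd1 and Srxn1, the members that belong to the thioredoxin branch, were higher in leukaemia, opposite to Nfe2l2. The branch did not move as a whole. The thioredoxin gene Txn1, outside the members and named after its value was seen, was 3.15-fold lower (3525 ± 261 against 11091 ± 1763 normalised reads, SD, n = 5 each). Txnrd1, the cytosolic thioredoxin reductase gene, ranged from 4149 to 4868 normalised reads in leukaemia and from 2575 to 3450 in myeloid cells, 1.52-fold higher in leukaemia (4541 ± 273 against 2978 ± 393, SD, n = 5 each, log2 difference 0.54, SE 0.0774, limma adjusted p = 2.08e-05). Srxn1 encodes sulfiredoxin, which rescues overoxidised peroxiredoxins. It had 340, 346, 295, 403 and 367 normalised reads in leukaemia replicates 1 to 5 and 192, 105, 165, 84.5 and 126 in myeloid replicates 1 to 5. All leukaemia libraries were above all myeloid libraries, and the myeloid replicates 2 and 4 were the lowest. The means were 350 ± 39.7 and 135 ± 43.9 (SD, n = 5 each, 2.6-fold higher in leukaemia, log2 difference 0.56, SE 0.0744, limma adjusted p = 9.76e-06). Its myeloid mean lay under the filter, so it passed only through the group where it is high.

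Glrx encodes glutaredoxin 1, which uses glutathione to remove it from protein cysteines. It had 2055, 2310, 1829, 2083 and 2058 normalised reads in leukaemia replicates 1 to 5. In myeloid replicates 1 to 5 it had 10742, 18607, 13012, 14499 and 13018. The lowest myeloid library had several times the reads of the highest leukaemia library, and myeloid replicate 2 was the highest of all. The means were 2067 ± 171 and 13975 ± 2917 (SD, n = 5 each), 6.76-fold lower in leukaemia (log2 difference -2.46, SE 0.115, limma adjusted p = 4.13e-10). Of the genes tested, 3.28% had a larger absolute log2 difference.

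Per kilobase of exon (union of GENCODE M21 exons), the order of the levels differed between the groups. In leukaemia it ran from Gsr (8188 normalised reads per kilobase) through Txnrd1 (641), Nfe2l2 (541), Glrx (376), Gclc (372), Gclm (168), Srxn1 (124) and Gss (77.5) to Slc7a11 (2.7). In myeloid cells it ran from Gsr (15214) through Glrx (2544), Nfe2l2 (2121), Txnrd1 (420), Gclm (231), Gclc (148), Slc7a11 (142) and Gss (50.6) to Srxn1 (47.8). Neighbours in these orders whose difference was smaller than the larger of their SDs were Glrx and Gclc in leukaemia, and Glrx and Nfe2l2, Gclc and Slc7a11, and Gss and Srxn1 in myeloid cells. Srxn1 was thus the lowest member in myeloid cells, beside Gss, and xCT the lowest in leukaemia. The exon union of Slc7a11 is 13.9 kilobases, the longest of the 9, which lowers its value per length where shorter transcripts are made.

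The difference in summed reads between the groups makes the scaling matter. Quantile normalisation moved the median log2 difference of all tested genes by 0.25, and scaling reads to the table total in place of the authors' size factors moved it by 0.64. Measured from the median over all genes tested, Nfe2l2 was at -1.57 on the deposited values, -1.38 after quantile normalisation, and -1.76 in voom under either scaling. For Glrx the range over these 4 was from -2.53 to -2.12, and for Slc7a11 from -5.68 to -2.45. Gclc lay between 0.79 and 1.55 above the median, Txnrd1 between 0.69 and 0.89, and Srxn1 between 0.31 and 1.65. Gclm lay between -0.35 and -0.16 from the median and Gsr between -0.72 and -0.33, both below it under all 4. Changing the library scaling in voom shifts all log2 differences by nearly the same amount. After the subtraction the voom scalings therefore agree by construction and do not count separately. Gss was 0.46 above the median on the deposited values and 0.05 above it after quantile normalisation. Without that subtraction, the members other than Gclm kept the sign of their log2 difference in all 4.

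**Figure D3:**
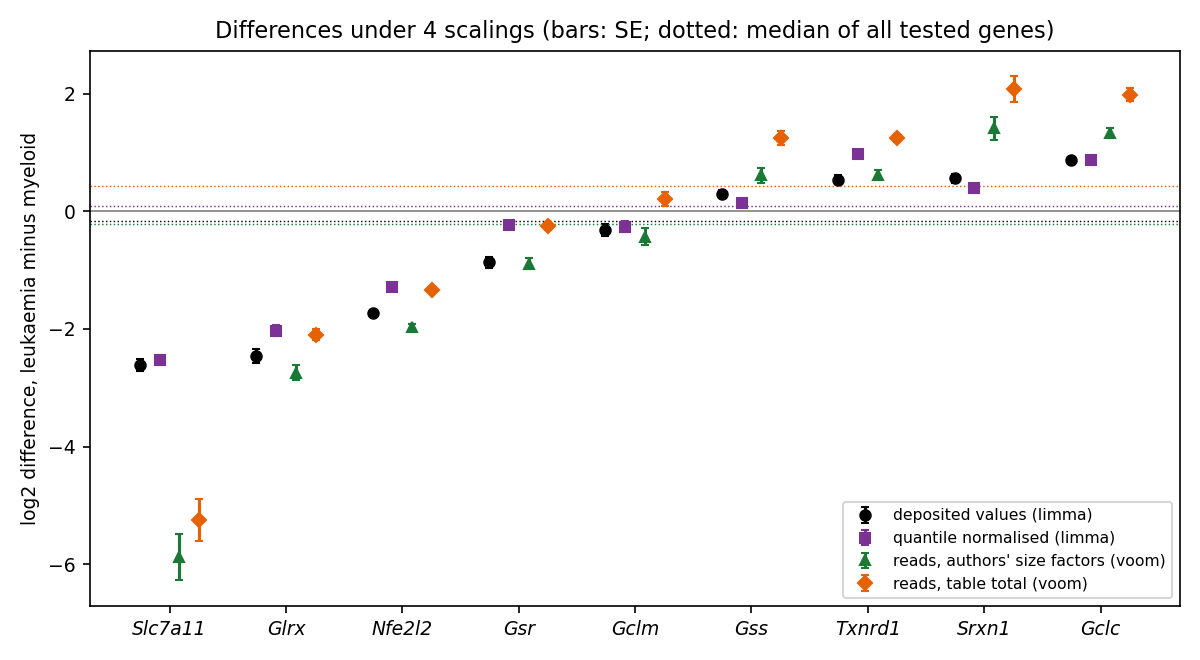
Log2 difference between leukaemia and myeloid cells (vertical axis, positive is higher in leukaemia, bars are SE) of each member under 4 scalings, with dotted lines at the median of all tested genes. Slc7a11, Glrx, Nfe2l2 and Gsr lie below 0 and Gss, Txnrd1, Srxn1 and Gclc above 0 under all 4, and Gclm crosses 0 when reads are scaled to the table total.

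The myeloid libraries differed among themselves in several members. Myeloid replicates 2 and 4, which were low in dendritic cell markers, had the highest sums of neutrophil markers (4540719 and 3805815 normalised reads). They also had the highest Glrx, Gsr (49022 and 45080) and Txnrd1 (3344 and 3450), and the lowest Srxn1. Monocyte marker sums went the opposite way, at 78282 and 81458 in these libraries against 117195 to 127386 in the other 3. Sums of macrophage, B cell and erythroid markers were also lowest in myeloid replicates 2 and 4. The leukaemia and progenitor marker sums were highest there, at 44547 and 31848 against 19818 to 24065. Myeloid replicate 1 had the lowest Slc7a11, Gclm, Gsr and Glrx of the group and the highest Srxn1 and dendritic cell marker sum. The part of the mix of cells in these differences was not tested.

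Without myeloid replicates 2 and 4, every member kept its direction and its call in the limma fit. Glrx was then 5.93-fold lower in leukaemia, Nfe2l2 3.83-fold, Slc7a11 49.1-fold, Gsr 1.71-fold and Gclm 1.29-fold (limma adjusted p = 0.0455). Gclc was 2.42-fold, Srxn1 2.17-fold, Txnrd1 1.68-fold and Gss 1.62-fold higher. With only 3 myeloid libraries Nfe2l2 had a mean of 7878 ± 34 normalised reads (SD, n = 3), so its spread in the full group came mostly from replicate 4.

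**Figure D4:**
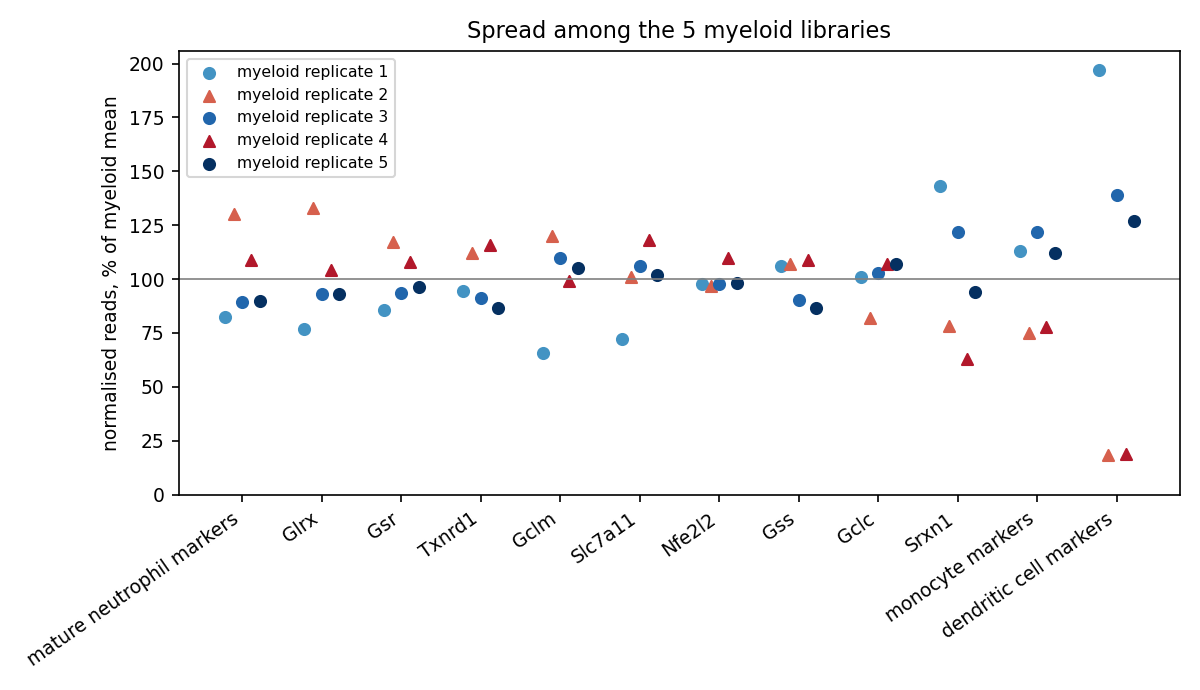
Normalised reads of each member and of 3 marker sums in the 5 myeloid libraries, as a percentage of the myeloid mean (vertical axis, linear from 0), with triangles for replicates 2 and 4. Glrx runs from 76.9% to 133% and Srxn1 from 62.8% to 143%, while the dendritic cell marker sum is 18.5% and 18.8% in the triangles.

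Of 23 partners and regulators of NRF2, 19 had an entry and 18 were tested. In leukaemia 5 were higher and 13 lower, where 49.1% of all tested genes were higher and 50.7% lower, and the median log2 difference was -0.82 beside -0.16 for all tested genes. With a log2 difference of at least 1, 6 were lower and 2 higher, beside 18.1% and 9.52% of all tested genes. These lists were chosen with results known, so the counts are descriptions. Of all called genes, the share that was higher was 49.2% on the deposited values, 53.4% after quantile normalisation and 67.4% on the table total, and the medians of all tested genes were -0.16, 0.09 and 0.43. Bach1, the repressor that competes with NRF2 for antioxidant response elements, was 3.36-fold lower (2635 ± 279 against 8846 ± 685 normalised reads, SD, n = 5 each). Sesn2, a stress-induced sestrin that promotes KEAP1 breakdown, was 6.58-fold lower, and Nfe2, a related factor of the blood lineage, 2.44-fold lower. Usp11, a deubiquitinase gene, was 5.18-fold higher, Amer1, whose product binds KEAP1, 3.66-fold higher, and Pgam5, a mitochondrial phosphatase and KEAP1 partner, 2.61-fold higher. Btrc (1.51-fold) and Dpp3 (1.21-fold), named after their values were seen, made up the 5. Also named so, the ligase scaffold Cul3 (4194 ± 359 against 8419 ± 959), the small MAF gene Mafg (3915 ± 374 against 9337 ± 1059) and the autophagy receptor Sqstm1 (3650 ± 219 against 6849 ± 443) were lower in leukaemia. Both the activator gene Nfe2l2 and Bach1, the gene of the repressor that competes with it, were therefore lower. Quantile normalisation moved the list median to -0.32, with 7 higher and 10 lower, and scaling to the table total moved it to -0.3, with 8 higher and 10 lower.

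Among 36 further NRF2 target genes, 26 had an entry and 22 were tested, with 7 higher and 15 lower (49.1% and 50.7% over all tested genes) and a median log2 difference of -1.03. Cbr1 and Osgin1 passed the filter through 1 group alone, so their group means had to differ. The lowest were Mgst1 (8.13-fold lower) and Mgst2 (8.13-fold lower), membrane-bound glutathione transferase genes, and Osgin1, an oxidative stress response gene (16.6-fold lower, 146 ± 39.2 against 2432 ± 419 normalised reads, SD, n = 5 each). The highest were the cytosolic glutathione transferase gene Gstm1 (5.18-fold higher, 11610 ± 730 against 2243 ± 434), the carbonyl reductase gene Cbr1 (6.78-fold) and the prostaglandin reductase gene Ptgr1 (2.53-fold). Gstm1 belongs to a family of similar copies, among which reads could be split. Hmox1, the haem oxygenase gene, which also marks macrophages, was lower (674 ± 93.6 against 2354 ± 808), and Nqo1, a quinone reductase gene often used to read NRF2 activity, lay below the filter at 29 ± 7.85 and 99.2 ± 28.6. Both were named after their values were seen, as were the pentose phosphate pathway genes. These were lower under all 4 scalings, but by sizes that depended on the scaling. In mean normalised reads G6pdx, the entry enzyme that makes NADPH, was 3.92-fold lower, Taldo1 2.29-fold, Pgd 1.92-fold and Tkt 1.87-fold. After quantile normalisation and on the table total, the log2 differences were -1.29 and -1.32 for G6pdx and -0.57 and -0.55 for Taldo1. They were -0.27 and -0.29 for Pgd, and -0.2 and -0.25 for Tkt. Both of these scalings gave a median of -0.42 for the list of further target genes. With each, 9 were higher and 13 lower, where the medians of all genes were 0.09 and 0.43.

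The cystine and cysteine supply list had 25 genes, of which 14 had an entry and 10 were tested, with 4 higher and 6 lower (median -0.58), beside 49.1% and 50.7% over all tested genes. It also held genes of cysteine and sulfide breakdown and of the stress response, so its median does not describe supply alone. The 6 lower genes were all of these kinds, namely Sqor, Ethe1, Csad, Ddit3, Atf3 and Chac1. Csad and Atf3 were named after their values were seen. Atf3 had overlapping groups, at 232 ± 226 against 1930 ± 2019 normalised reads (limma adjusted p = 0.0287). It did not pass in voom with the authors' size factors or the table total (limma-voom adjusted p = 0.0903 and 0.269). The list median was -0.72 under quantile normalisation, with 4 higher and 6 lower, and -0.92 on the table total, with 4 higher and 5 lower. Ahcy, which hydrolyses S-adenosylhomocysteine on the way from methionine to cysteine, was 4.44-fold higher (4699 ± 469 against 1059 ± 208 normalised reads, SD, n = 5 each). Mat2a, which makes S-adenosylmethionine, was 2.38-fold higher, and Slc1a5, a neutral amino acid transporter gene, 2.25-fold higher. The fourth was Mfsd12, a transporter gene needed for cystine import into lysosomes, 1.66-fold higher and named after its value was seen. Sqor, a sulfide oxidising enzyme gene, was 6.63-fold lower (1235 ± 138 against 8183 ± 1557), and Ethe1, which acts after it, 3.21-fold lower. Ddit3, a stress factor gene downstream of ATF4, was 3.73-fold lower. Chac1, an ATF4 target whose product degrades glutathione, was also lower, at 91.6 ± 45.3 against 262 ± 54.5. It passed the filter through the myeloid group alone and was named after its value was seen. Atf4 was not analysed here. Cth, whose product releases cysteine from cystathionine, lay below the filter, with 158 reads over the leukaemia libraries and 5 over the myeloid libraries, and was also named after its value was seen.

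Of 26 genes that use and recycle glutathione, 20 had an entry and 12 were tested, 10 of them higher and 2 lower (median log2 difference 0.48), beside 49.1% higher, 50.7% lower and a median of -0.16 over all tested genes. Ggt5 and Mgst3 passed the filter through 1 group alone, so their group means had to differ. For Mgst3, named after its value was seen, the groups overlapped (182 ± 34.2 against 125 ± 25.5 normalised reads). Its log2 difference was 0.18 on the deposited values, and 0.03 after quantile normalisation, where it did not pass (limma adjusted p = 0.693). Gpx3, a secreted glutathione peroxidase gene, was 8.72-fold higher (2345 ± 383 against 269 ± 68.2 normalised reads, SD, n = 5 each). Lap3, an aminopeptidase that can cleave cysteinylglycine, was 4.64-fold higher, and Gsto1, an omega-class glutathione transferase gene, 2.51-fold higher. Ggt5, a gamma-glutamyltransferase gene, was 318-fold lower, at 5.85 ± 4.52 against 1860 ± 372. Its leukaemia mean rests on 37 reads over 5 libraries. The other lower gene was Gpx4, which reduces lipid peroxides, at 3763 ± 496 against 4571 ± 687 with overlapping groups (limma log2 difference -0.25, adjusted p = 0.0327), and it turned to 0.25 after quantile normalisation and 0.36 on the table total. It was named after its value was seen. Under quantile normalisation the list median was 0.66, beside 0.09 for all tested genes, and with reads scaled to the table total it was 1.38, beside 0.43. Of the genes below the filter, Ggt1, Chac2, Oplah, Anpep and Abcc3 had lower means in leukaemia, and Ggt7, Gstk1 and Gstt2 higher means. Ggt1 was at 10.7 ± 6.93 against 448 ± 207, and Gstk1 at 216 ± 27.7 against 71 ± 6.27. All were named after their values were seen.

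In the thioredoxin and glutaredoxin list, 28 of 34 genes had an entry and 27 were tested, with 16 higher and 11 lower (median 0.28), beside 49.1% and 50.7% over all tested genes. Quantile normalisation gave a list median of 0.37 and the table total 1.02. On the deposited scale, which compresses low counts, the 4 genes with a log2 difference of at least 1 were all lower. Over all tested genes 18.1% were lower by as much and 9.52% higher. They included Txnip, an inhibitor of thioredoxin (5.1-fold, 5166 ± 410 against 26361 ± 3107 normalised reads, SD, n = 5 each), and the methionine sulfoxide reductase genes Msrb1 (4.64-fold) and Msra (3.99-fold). The fourth, named after its value was seen, was the peroxiredoxin gene Prdx5 (3.06-fold). With voom on the reads and the authors' size factors, genes reached 1 in both directions, as did 3851 of all tested genes in either direction. Higher ones were Txnrd2 (1.33), Glrx5 (1.21), Prdx2 (1.16), Glrx3 (1.15) and Tmx2 (1.01). Msrb2 (-1.45), Txndc17 (-1.3), Nxn (-1.25), Tmx3 (-1.08) and Sesn3 (-1.07) joined the lower ones. These voom values were picked after they were seen. Glrx3, a glutaredoxin that handles iron-sulfur clusters, was 2.22-fold higher, opposite in direction to Glrx. Prdx2, a peroxiredoxin gene and thus of the family that sulfiredoxin repairs, was 2.21-fold higher, and Tmx2, a thioredoxin-related membrane protein gene, 2.02-fold higher.

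**Figure D5:**
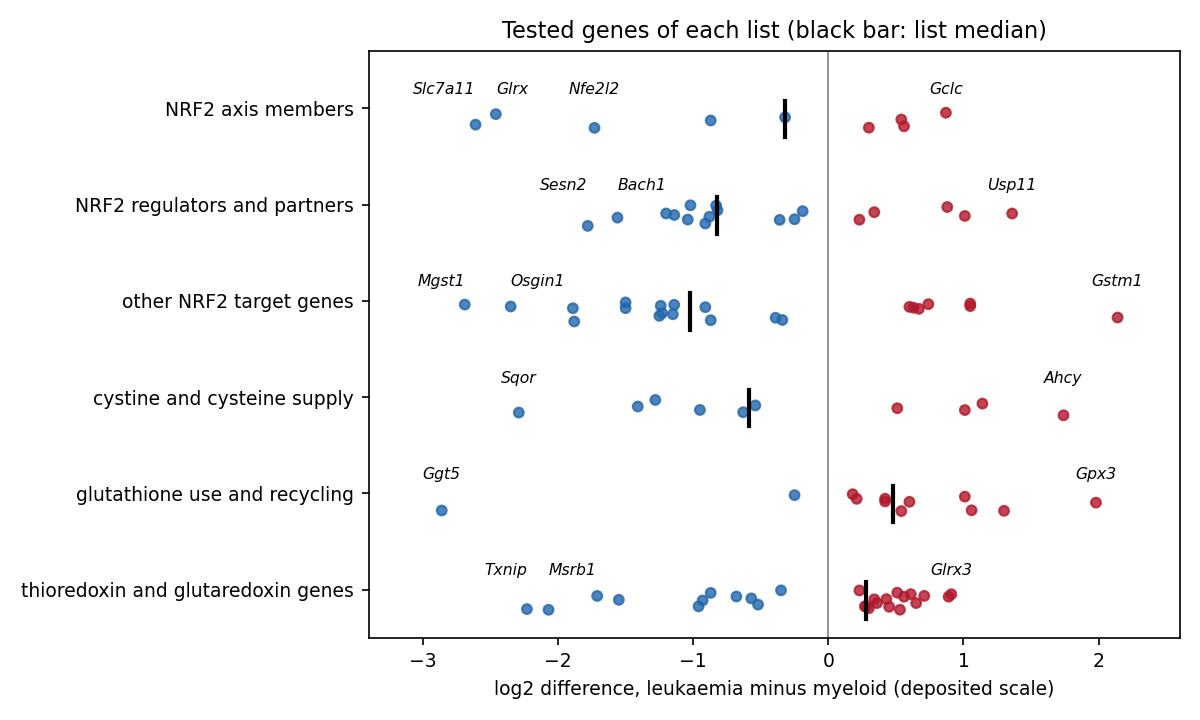
Log2 difference between leukaemia and myeloid cells (horizontal axis, deposited scale, positive is higher in leukaemia) of each tested gene in the member list and 5 other lists, with points red above 0 and blue below 0 and black bars at the list medians. The bars lie at -0.82 for regulators, -1.03 for other targets, -0.58 for cystine and cysteine supply, 0.48 for glutathione use and 0.28 for thioredoxin and glutaredoxin genes. The cystine and cysteine supply list also holds breakdown and stress genes.

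The pattern of each main member over the 10 libraries was compared with 8078 other genes after each group's mean was removed, so that only the spread within groups counted. Closest to Nfe2l2 were Rab22a (Pearson r = 0.96), Lima1 (0.95) and Gfpt1 (0.93). Closest to Slc7a11 were Klf7 (0.97), the amino acid transporter gene Slc38a2 (0.96) and Tubgcp2 (0.94). Closest to Glrx were Tuba1b (0.98), Rfc3 (0.97) and Tk1 (0.97). The tubulin gene Tuba1b, the replication factor gene Rfc3 and the thymidine kinase gene Tk1 were higher in leukaemia (log2 differences 0.89, 1.18 and 0.92), opposite to Glrx, so they followed Glrx only within groups. These values describe the best of many genes over 10 libraries that share their normalisation.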

How the data were processed

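RNA of 5 GFP+ leukaemia and 5 GFP-CD11b+ myeloid libraries was sequenced. The authors deposited 1 table of normalised variance-stabilised log2 values. Per the submitters' processing notes, HISAT2 (2.0.4 and 2.2.1) and DESeq2 were used. Genome build, annotation, counter and strandedness are not given in the sources used here. Of 10141 symbols, 10133 were in GENCODE M21.

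The variance-stabilising function was inverted from the lowest value (8.1823, 0 reads), assuming its parametric form, and 100% of values up to 300 reads were whole within 0.1 read. Values of 2 reads (433) outnumbered those of 1 read (36), so a read may be part of a counted pair. limma (3.58.1, R 4.3.3) was fitted to the deposited values (trended prior, two-sided, Benjamini-Hochberg at 0.05) for genes whose mean lay over 1 unit above the lowest value, about 145.2 normalised reads. The fit was tested on simulated data with known changes. Folds are ratios of mean normalised reads.

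The members, lists and rules were chosen with earlier results of these data known. Named were all members, and per list the 3 highest and 3 lowest non-overlapping passing genes, the most abundant gene that did not pass (none), and the 3 genes most like Nfe2l2, Slc7a11 and Glrx. Alternatives were the filter, the scaling, voom, the prior, left-out libraries and a replicate block. The labels do not say whether same-numbered libraries share a mouse. Correlations of their deviations ran from -0.02 to 0.32, which cannot settle it.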

Additional observations from a re-analysis of the deposited data

Results flagged for a closer look

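The gap of the highest or lowest library to its neighbour was examined in both groups for the 9 members and the Gclc to Gclm ratio, 20 groups of 5 libraries, of which chance flags about 1 in 20. In 3 of them 1 library lay far from the others. Nfe2l2 was high in myeloid replicate 4, at a deposited log2 value of 13.2. Gclc was low in myeloid replicate 2, at 9.89. The log2 ratio of Gclc to Gclm reads was low in leukaemia replicate 2, at 0.08, the library with the highest Gclm of its group. Their causes were not tested.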

How the results depend on the processing

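All of the 9 members but Gclm kept their direction and call under every alternative in which they were tested. Gclm had a log2 fold of 0.21 scaled to the table total. With each library left out in turn, its log2 difference lay between -0.42 and -0.26. The stricter filter removed Slc7a11, Gss and Srxn1, leaving 2 members called higher, and 2415 of all genes called higher. A log2 difference of at least 1 was reached by 3 members on the deposited values, by 5 with voom and the authors' size factors (3851 of all genes) and by 7 with voom scaled to the table total (4624 of all genes, against 2234), where 2232 genes were lower and 67.4% of called genes were higher, against 49.2%. The added members were all higher, Gclc and Srxn1 in both voom fits, and Gss and Txnrd1 on the table total. Slc38a2 turned to 0.08 after quantile normalisation and 0.1 scaled to the table total. The causes were not tested. With a replicate block all 9 members stayed called and 8018 genes passed, against 8062. In 0 of 5 numbers was the same-numbered library the most alike for both. The Gclc to Gclm log2 ratio difference of 1.77 had an exact p = 0.0625 in same-numbered pairs, the smallest that 5 pairs can give. Without myeloid replicates 2 and 4 it was 1.61. Depth limits Slc7a11 in leukaemia, which rests on 19 to 90 reads per library.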
